A study of Rattus norvegicus with 32 samples.

Results

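The mitochondrial carriers of the Slc25 family, together with the uncoupling proteins Ucp1, Ucp2 and Ucp3, were examined in liver and small intestine of lactating and control rats. Members were taken as the transcript clusters that carry 1 gene symbol and whose symbol is Slc25a followed by a number, or Ucp1, Ucp2 or Ucp3. This gave 35 genes, each with 1 cluster, of 19434 clusters on the array. The RefSeq annotation of the assembly GRCr8 lists 52 protein-coding family genes, and the other 17, among them Slc25a5, Slc25a12 and Slc25a13, were not analysed here. Sprague-Dawley dams on day 10 to 11 of lactation and virgin controls of the same age, 16 rats per state, were sacrificed at hour 16. RNA from 4 rats made each pool, and the same rats were pooled in each tissue, so that each state had 4 pools in liver, duodenum, jejunum and ileum. The intestinal samples were scrapes of the mucosa per the methods of the study, while the labels speak of homogenates. Values are log2 expression on the Affymetrix Rat Exon 1.0 ST array after RMA, in which probe signals are background corrected, quantile normalized and summarised per gene. A difference of 1 is a 2-fold change.

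Carriers of this family sit in the inner mitochondrial membrane and move adenine nucleotides, phosphate, carboxylates, amino acids and cofactors between cytosol and matrix. They link the citric acid cycle, fatty acid oxidation, the urea cycle and heme synthesis to enzymes outside the matrix. In liver they serve gluconeogenesis, ureagenesis and the export of citrate for lipid synthesis, and in enterocytes they serve the oxidation of glutamine and other fuels. Lactation raises food intake and the work of both tissues.

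Before members were compared, the arrays were checked. Array medians lay between 4.68 and 4.87. Principal components were taken of the deviations from the 8 group means, so that differences between tissues and states had been removed. The first component held 30.1% of this remaining variance. On it the 8 arrays of pool number 4, from both states, stood apart from the other 24. Their scores were 26.5 to 41.1 against -20.4 to -3.28. Among members, Slc25a3, Slc25a4 and Slc25a32 had their lowest value in pool 4 in all 8 groups, which was also the case for 4.1% of all clusters. The mean of 6 hepatocyte markers was 13.10 to 13.28 in lactating and 13.00 to 13.22 in control livers, and the mean of 5 enterocyte markers was at 11.69 or more on every intestinal array. In pools of tissue, fewer cells of a type and less RNA per cell cannot be told apart.

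A total of 25 members reached a group mean of 6 in at least 1 of the 8 groups and 14 reached it in all 8. The 10 that never did were Slc25a2, Slc25a21, Slc25a26, Slc25a27, Slc25a31, Slc25a41, Slc25a43, Slc25a54, Ucp1, which drives heat production in brown fat, and Ucp3, its homologue of muscle. Of these, Slc25a2, Slc25a21, Slc25a27, Slc25a31, Slc25a41, Slc25a54 and Ucp1 lay under the array median on all 32 arrays. All 35 members were kept in the tests.

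Lactating and control pools were compared in each tissue with limma, and a member was called at a Benjamini-Hochberg adjusted p under 0.05 over all clusters. In liver, 2 of 35 members were called, and both were downregulated in lactating rats, where 1.88% of all clusters were called (1.17% lower and 0.715% higher). They were Slc25a30, an uncoupling protein homologue known from kidney, and Slc25a25, a calcium-regulated carrier that exchanges ATP-Mg for phosphate and so sets the adenine nucleotide content of the matrix. The other 33 members differed in liver by -0.69 to 0.30. With the pool number as a replicate block, 6 members were called in liver, all lower, where 4.13% of clusters were.

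**Figure D1:**
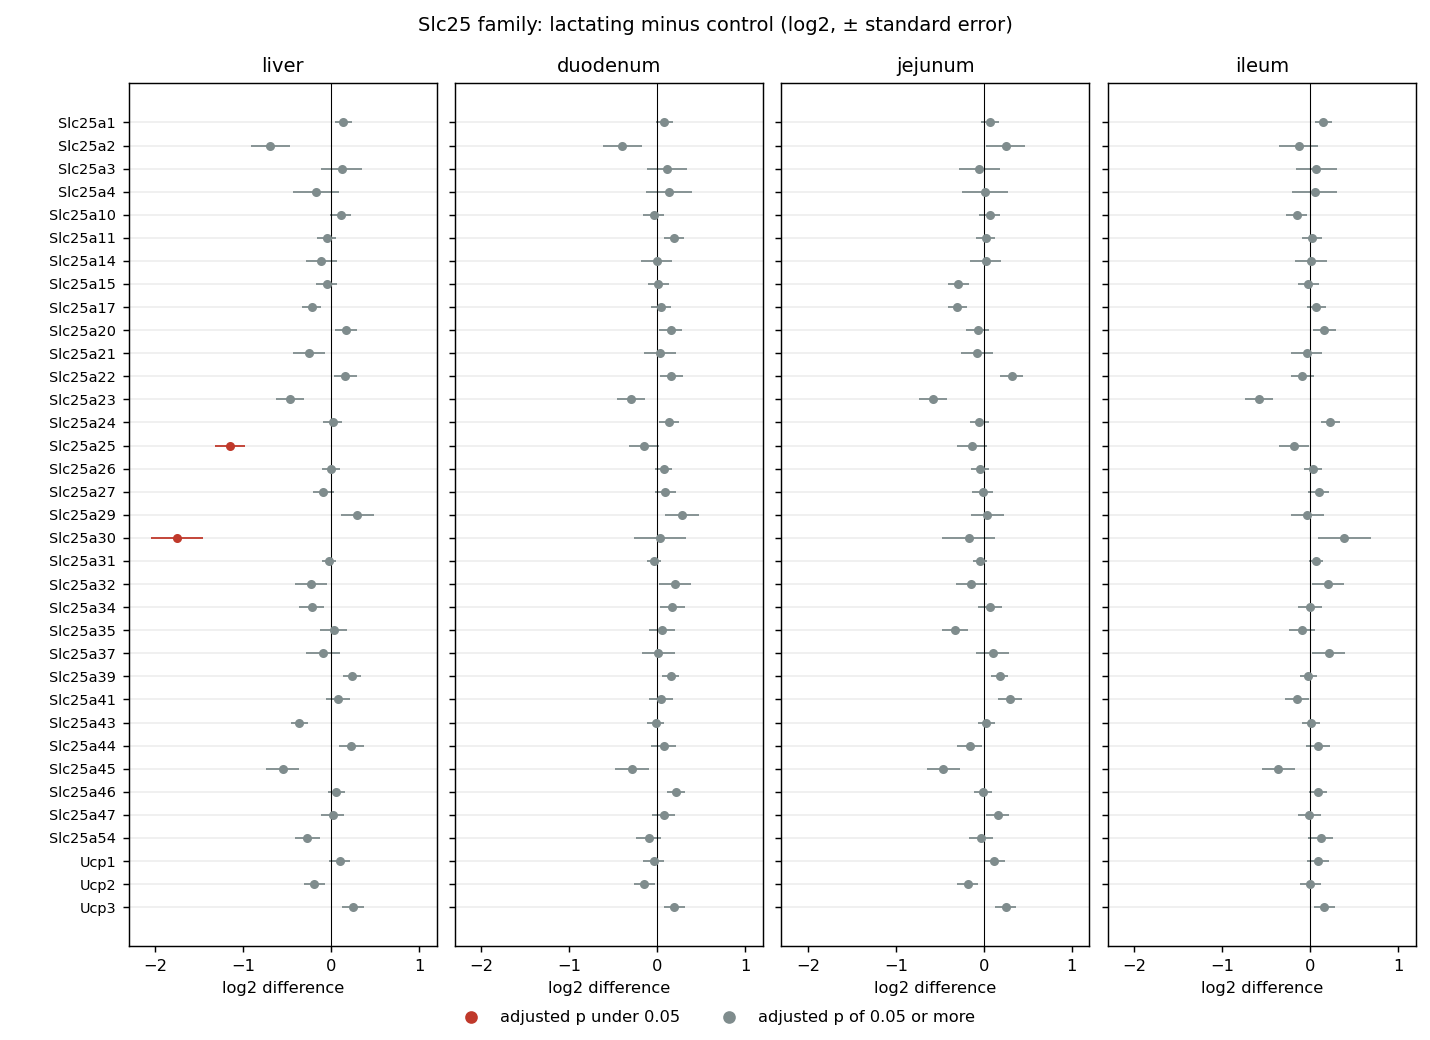
Lactating minus control difference (log2, x axis, ± standard error from limma) of each of the 35 members (y axis) in the 4 tissues, with 4 pools per state. The points past the threshold are Slc25a25 (-1.15) and Slc25a30 (-1.75) in liver, and no point is past it in the duodenum, jejunum or ileum.

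Slc25a25 measured 8.72, 9.05, 9.0 and 9.54 in the livers of lactating pools 1 to 4, against 9.92, 10.06, 10.42 and 10.52 in control livers. Every lactating pool lay below every control pool. The difference was -1.15 ± 0.17 (SE, n = 4 pools per state), a level 2.22-fold lower in lactating livers, with an adjusted p of 0.000107 in limma. Leaving out any 1 of the 8 pools kept the call, as did leaving out both pools of number 4 (adjusted p = 0.00172). It was lost when the liver arrays were fitted alone (adjusted p = 0.0731).

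In the intestine, Slc25a25 was lower in lactating rats by amounts within the spread between pools. The differences were -0.15 ± 0.17 in duodenum, -0.13 ± 0.17 in jejunum and -0.18 ± 0.17 in ileum, and lactating and control pools overlapped in each. The change in liver was larger than the mean change over the 3 segments by -1.0 ± 0.18 (adjusted p = 0.00154 in limma). The interaction of state and tissue passed for Slc25a25 as well (adjusted p = 0.0112), but not without control pool 4 (0.094), lactating pool 1 (0.0596), lactating pool 3 (0.0904) or both pools of number 4 (0.122).

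The gene of Slc25a25 overlaps Naif1 in the RefSeq annotation, and the deposited values do not give which probes carry the signal. Slc25a25 has 2 close relatives among the members, Slc25a23 and Slc25a24, which are also calcium-regulated ATP-Mg/phosphate carriers. The promoters are shown because these 3 genes of like function divided by tissue in control rats. Slc25a23 and Slc25a25 were higher in liver, and Slc25a24 was higher in the intestine. Changes with lactation were not tested between the 3 genes. The RefSeq sequences (GRCr8) cover 250 bases before and 50 after the annotated start, for Slc25a25 at chr3:36116532-36116831 on the minus strand, for Slc25a23 at chr9:1985316-1985615 on the minus strand and for Slc25a24 at chr2:199449175-199449474 on the plus strand. Capitals mark matches on either strand to a full cyclic AMP response element (TGACGTCA), a CCAAT box (CCAAT) or a GC box (GGGCGG).
Slc25a25: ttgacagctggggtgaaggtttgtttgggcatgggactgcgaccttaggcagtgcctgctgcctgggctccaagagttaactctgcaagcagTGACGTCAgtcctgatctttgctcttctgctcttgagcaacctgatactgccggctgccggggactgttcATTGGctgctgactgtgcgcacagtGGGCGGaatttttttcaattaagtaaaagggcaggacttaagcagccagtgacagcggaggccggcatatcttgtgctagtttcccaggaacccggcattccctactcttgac
Slc25a23: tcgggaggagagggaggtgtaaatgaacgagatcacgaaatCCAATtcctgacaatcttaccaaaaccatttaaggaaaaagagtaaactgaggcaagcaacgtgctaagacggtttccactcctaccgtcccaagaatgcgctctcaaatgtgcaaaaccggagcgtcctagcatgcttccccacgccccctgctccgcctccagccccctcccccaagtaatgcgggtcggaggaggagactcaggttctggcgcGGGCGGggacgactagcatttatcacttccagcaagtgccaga
Slc25a24: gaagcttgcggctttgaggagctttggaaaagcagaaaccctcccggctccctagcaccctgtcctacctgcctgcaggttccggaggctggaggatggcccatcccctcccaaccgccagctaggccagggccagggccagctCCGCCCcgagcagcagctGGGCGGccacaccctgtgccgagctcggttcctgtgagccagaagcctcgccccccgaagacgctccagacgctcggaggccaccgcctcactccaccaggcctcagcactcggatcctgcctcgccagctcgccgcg

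The full cyclic AMP response element lay at position -158 in the Slc25a25 promoter, counted with -1 as the base before the start. It is the site read by CREB-type factors, and it holds the shorter site TGACG on both strands. It was found in 1 of the 30 members with a promoter entry and in 1.83% of all 33469 promoters. Slc25a23 held a CCAAT box at -209 and a GC box at 8, and Slc25a24 held GC boxes at -106 and -88. The GC box occurred in 18 of 30 member promoters and in 33.1% of all promoters, the CCAAT box in 16 and 37.5%, and the shorter site TGACG in 7 and 21.2%. A FoxO site (TGTTTAC) was in 0 member promoters and 3.78% of all, an E-box (CACGTG) in 2 and 6.42%, and a TATA box (TATAAA) in 1, that of Ucp1, and 14.2%. The median GC content of member promoters was 58% against 51.7% for all promoters. A match of letters does not show that a factor binds.

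Slc25a30 measured 6.84, 7.16, 6.96 and 7.70 in lactating livers and 8.72, 8.25, 9.47 and 9.21 in control livers. The highest lactating pool lay below the lowest control pool. The difference of -1.75 ± 0.30 (SE, n = 4 pools per state) was the largest of any member in any tissue and equalled a 3.36-fold lower level in lactating livers (adjusted p = 0.000669, limma). The call held with each pool left out and without both pools of number 4 (0.013), and was lost with the liver arrays fitted alone (0.0542).

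In the intestine, Slc25a30 missed the threshold in each segment. The differences were 0.03 ± 0.30 in duodenum, -0.17 ± 0.30 in jejunum and 0.39 ± 0.30 in ileum, and the pools of the 2 states overlapped in each segment. The change in liver exceeded that in the segments by -1.83 ± 0.32 (adjusted p = 0.000866, limma), and the interaction of state and tissue passed (adjusted p = 0.00466). The interaction was lost without lactating pool 3 (0.0578) or both pools of number 4 (0.154). Of the 35 members, Slc25a25 and Slc25a30 were the 2 called in either test, where the interaction was called for 2.05% of clusters and the contrast of liver with the segments also for 2.05% (1.19% lower).

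**Figure D2:**
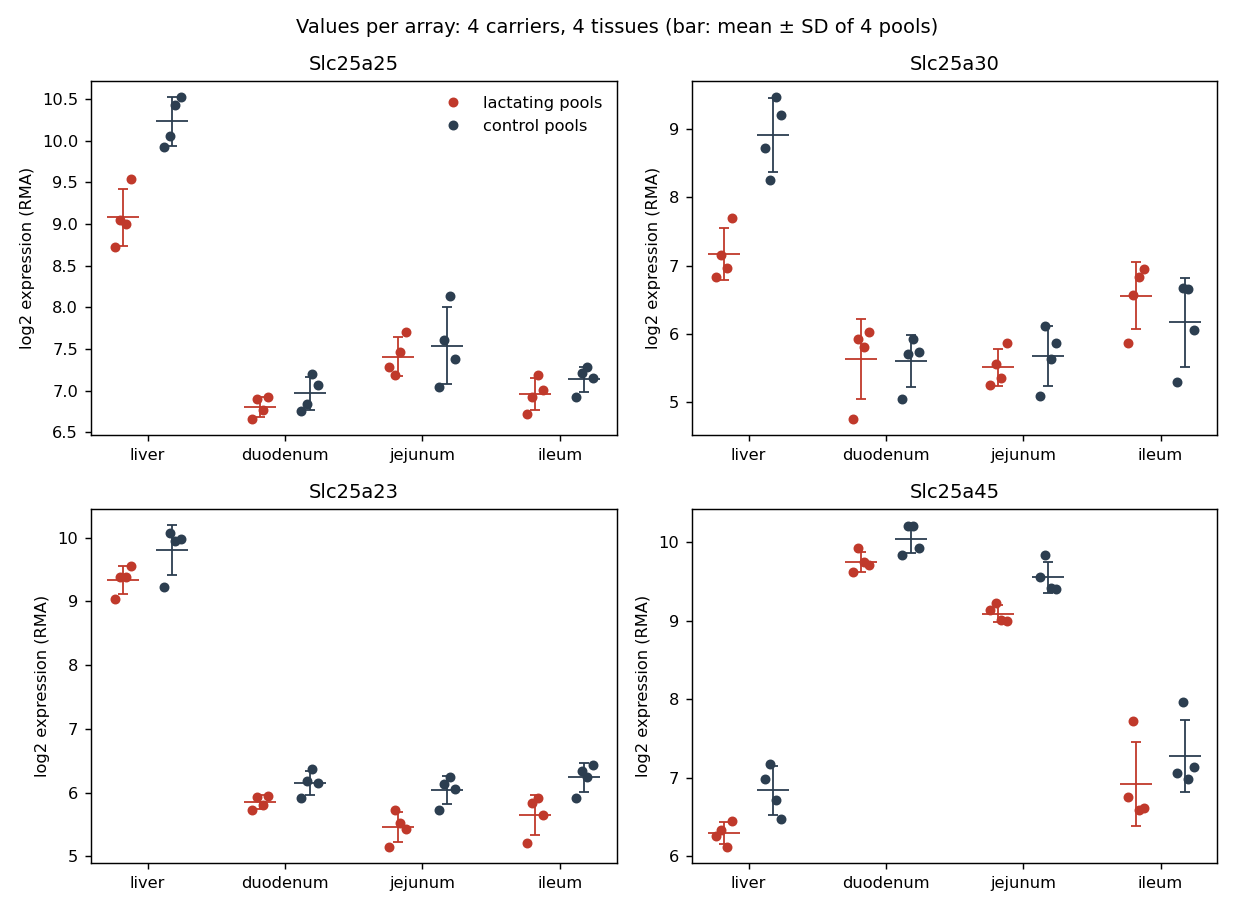
Log2 expression (y axis) of Slc25a25, Slc25a30, Slc25a23 and Slc25a45 on each array by tissue (x axis), lactating pools in red and left of control pools in blue, with the mean ± SD of 4 pools. In liver, the lactating pools of Slc25a25 (up to 9.54) and Slc25a30 (up to 7.70) all lie below the control pools (from 9.92 and from 8.25).

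Slc25a23 was lower in lactating rats in each tissue. Averaged over the 4 tissues, the state effect was -0.48 ± 0.10 (adjusted p = 0.00428, limma). In total 2 of 35 members passed this test, Slc25a23 and Slc25a25 (-0.41 ± 0.10, adjusted p = 0.0333), both downregulated, where 2.51% of clusters passed (1.55% lower). The average for Slc25a25 combines -1.15 in liver with -0.15, -0.13 and -0.18 in duodenum, jejunum and ileum. Slc25a23 held with each pool left out and was lost in the mixed model of the methods (adjusted p = 0.313). Slc25a25 also lost its call there (0.391), and in 6 of the 8 fits that left out a pool, namely control pool 2 (0.1), 3 (0.154) or 4 (0.0984) and lactating pool 1 (0.133), 2 (0.104) or 3 (0.111). The study itself used unadjusted limits with the mixed model, a state p under 0.05 and a tissue p under 0.01. By these limits it lists Slc25a23 as changed in jejunum and ileum, and Slc25a25 in liver. Slc25a30 is absent from its list of changed Slc genes. In the mixed model as refitted here, Slc25a30 passed in liver (adjusted p = 0.0202) and missed for the state effect (0.69). The replicate block called 8 members for the state effect, where 17.5% of clusters were called. Beside Slc25a23 and Slc25a25, those lower were Slc25a45, Slc25a30 (-0.37, adjusted p = 0.0123) and Ucp2 (-0.13, 0.0106). Those higher were Ucp3 (0.21, 0.00568), Slc25a22 (0.14, 0.0216) and Slc25a39 (0.14, 0.0223). The average for Slc25a30 combines -1.75 in liver with 0.03, -0.17 and 0.39 in duodenum, jejunum and ileum.

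In jejunum, Slc25a23 measured 5.15, 5.73, 5.53 and 5.43 in lactating pools and 5.73, 6.14, 6.24 and 6.05 in control pools. In ileum it measured 5.21, 5.84, 5.92 and 5.65 in lactating pools and 5.92, 6.34, 6.25 and 6.44 in control pools. In liver it measured 9.03, 9.38, 9.38 and 9.55 in lactating pools and 9.22, 10.07, 9.95 and 9.98 in control pools. Within each tissue pool 1 was the lowest of its state, and control pool 1 lay in the lactating range in liver and duodenum and met its edge in jejunum and ileum.

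The differences of Slc25a23 were -0.58 ± 0.16 in jejunum, -0.58 ± 0.16 in ileum, -0.47 ± 0.16 in liver and -0.30 ± 0.16 in duodenum. None passed alone in limma (adjusted p = 0.0802, 0.0603, 0.144 and 0.592 in that order). With the replicate block they passed in jejunum (0.000637), ileum (0.000628) and liver (0.0037), and missed in duodenum (0.0993), and Slc25a23 was the 1 member so called in jejunum and in ileum, where 2.1% and 3.78% of clusters were. Leaving out control pool 1 also brought jejunum (0.0132), ileum (0.012) and liver (0.00705) past the threshold. The effect did not pass the test of a difference between tissues (interaction adjusted p = 0.827).

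Slc25a24, the third of these carriers, differed by 0.02 ± 0.11 in liver, 0.13 ± 0.11 in duodenum, -0.05 ± 0.11 in jejunum and 0.23 ± 0.11 in ileum. In duodenum the lactating pools measured 9.89, 9.89, 9.93 and 10.24, against 9.86, 9.85, 9.87 and 9.87 in control pools. The groups did not overlap, yet the difference was small and missed the threshold (adjusted p = 0.83, limma). Slc25a24 overlaps Slc25a54 in the annotation. Slc25a41, an ATP-Mg/phosphate carrier that lacks the calcium-binding part, had group means of 3.03 to 3.38 and differed by 0.30 at most.

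The other nucleotide and phosphate carriers were near 0. Slc25a3, which imports phosphate for ATP synthesis, differed by 0.12, 0.11, -0.05 and 0.07 in liver, duodenum, jejunum and ileum. Slc25a4, which exchanges ADP for ATP, differed by -0.17, 0.13, 0.01 and 0.05. Pool 4 was the lowest in every group for both. Slc25a3 measured 11.07, 11.05, 11.18 and 9.95 in lactating livers, against 11.06, 10.80, 11.08 and 9.85 in control livers. This shift with the pool number, -0.71 over all tissues for Slc25a3 and for Slc25a4, exceeded their differences between the states, and the median over all clusters was 0.01.

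Slc25a45, a carrier given no role here, was lower in lactating rats in all tissues by amounts that missed the threshold. In liver it measured 6.26, 6.33, 6.12 and 6.45 in lactating pools and 6.98, 7.18, 6.72 and 6.47 in control pools. In jejunum it measured 9.13, 9.23, 9.01 and 8.99 in lactating pools and 9.55, 9.84, 9.42 and 9.40 in control pools. The groups did not overlap in these 2 tissues, although control liver pool 4, at 6.47, lay just above the highest lactating pool.

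The differences of Slc25a45 were -0.55 ± 0.19 in liver, -0.29 ± 0.19 in duodenum, -0.46 ± 0.19 in jejunum and -0.36 ± 0.19 in ileum, and the state effect was -0.41 ± 0.12 (adjusted p = 0.0578, limma). With the replicate block the state effect passed (0.000165), as did the difference in liver (0.0338). The state effect also passed with no pool block (0.0114), with quantile normalization within tissue (0.038), with array weights (0.0473) and without lactating pool 2 (0.0112), and missed in the mixed model (0.391). In ileum, pool 2 was far above the other pools in both states, at 7.72 in the lactating and 7.97 in the control pool. Slc25a45 overlaps LOC120100409 in the annotation.

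In liver, Slc25a43 had the smallest p after Slc25a25 and Slc25a30, and Slc25a2 passed with the replicate block as Slc25a43 did. Slc25a43 measured 4.45, 4.22, 4.29 and 4.05 in lactating livers and 4.72, 4.81, 4.36 and 4.55 in control livers. Its difference was -0.36 ± 0.10 (adjusted p = 0.0688 in limma and 0.0375 with the block), and 1 control pool lay within the lactating range. It also passed in the mixed model (0.0428), with quantile normalization within tissue (0.0372), with array weights (0.0265) and without control pool 3 (0.0342). Slc25a2, an ornithine carrier, measured 3.54, 3.69, 3.86 and 3.55 in lactating livers and 4.02, 4.69, 4.30 and 4.38 in control livers. The groups did not overlap, and the difference was -0.69 ± 0.22 (adjusted p = 0.122, and 0.0478 with the block). Both genes lay near or under the array median. In all, 5 members had lactating livers below all control livers, Slc25a2, Slc25a17, Slc25a25, Slc25a30 and Slc25a45, and 0 had them above, where 2.65% of clusters had them below and 5.21% had either.

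In the duodenum, 0 of 35 members were called in limma, where 0.643% of clusters were. The mixed model called 0 as well at an adjusted p under 0.05, and 1 member had an unadjusted p under 0.05. The share of all clusters was not counted for the mixed model or for unadjusted p-values. The smallest p-values belonged to Slc25a46, a protein of the outer mitochondrial membrane (0.21 ± 0.10), Slc25a23 (-0.30 ± 0.16) and Slc25a2 (-0.40 ± 0.22), with adjusted p from 0.539 to 0.637. Slc25a46 measured 7.24, 7.38, 7.26 and 7.09 in lactating pools and 6.99, 7.04, 7.08 and 7.01 in control pools. It and Slc25a24 were the 2 members with no overlap of the pools, where 5.78% of clusters had none (3.8% higher). In this segment 6 of 6 pancreatic acinar markers were called lower in lactating rats, and their mean was 5.15 to 9.04 in lactating and 10.35 to 11.71 in control pools. Their part in the values of the members was not tested.

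In the jejunum, 0 members were called in limma and 0 in the mixed model, both at an adjusted p under 0.05. Limma called 0.808% of clusters. An unadjusted p under 0.05 was found for 8 members. For the mixed model and unadjusted p-values, the share of all clusters was not counted. After Slc25a23 the smallest p-values belonged to Slc25a17, which carries cofactors into peroxisomes, and Slc25a22, a glutamate carrier. Slc25a17 measured 6.68, 6.77, 6.64 and 6.63 in lactating pools and 6.90, 7.16, 6.77 and 7.10 in control pools (-0.30 ± 0.11, adjusted p = 0.287). Slc25a22 measured 9.92, 10.19, 10.02 and 10.25 in lactating pools and 9.67, 9.93, 9.74 and 9.75 in control pools (0.32 ± 0.13, adjusted p = 0.312). The pools overlapped for both genes, at the edge of their ranges. Slc25a23, Slc25a35 and Slc25a45 had no overlap, all lower, where 5.37% of clusters had none (2.78% lower). The mean of 6 adipocyte markers was 5.95 to 6.25 in lactating and 6.75 to 6.86 in control jejunum, with 1 of 6 called lower (Adipoq), and that of 6 hepatocyte markers was 5.59 to 5.97 in lactating and 5.52 to 5.61 in control jejunum, with 1 of 6 called higher (Ttr) and 1 lower (Alb). Their part in the values of the members was not tested.

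In the ileum, 0 members were called in limma and 0 in the mixed model, both at an adjusted p under 0.05. Limma called 1.28% of clusters. An unadjusted p under 0.05 was found for 2 members, Slc25a23 and Slc25a24, and Slc25a45 had the next smallest p. For the mixed model and unadjusted p-values, the share of all clusters was not counted. Slc25a24 measured 10.60, 10.78, 10.84 and 10.91 in lactating pools and 10.37, 10.70, 10.61 and 10.54 in control pools. Lactating pool 1 lay within the control range (0.23 ± 0.11, adjusted p = 0.427). No member had lactating and control pools apart in ileum, where 7.51% of clusters did.

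The carboxylate and acyl carriers had small differences. Slc25a1, which exports citrate for lipid synthesis, differed by 0.14 ± 0.10 in liver, 0.08 ± 0.10 in duodenum, 0.07 ± 0.10 in jejunum and 0.15 ± 0.10 in ileum. Slc25a20, which brings acylcarnitines into the matrix for oxidation, differed by 0.17 ± 0.13, 0.15 ± 0.13, -0.07 ± 0.13 and 0.16 ± 0.13 in the same order. All of these lay within 2 standard errors of 0. Across the 5 members of the group, Slc25a1, Slc25a10, Slc25a11, Slc25a20 and Slc25a21, the range in liver was -0.25 to 0.17.

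The urea cycle carrier Slc25a15, which exchanges ornithine for citrulline, differed by -0.05 in liver, where lactating pools measured 10.80, 10.97, 11.03 and 10.97 and control pools 10.62, 11.03, 11.16 and 11.15. The groups overlapped almost fully. Among the cofactor and metal carriers, Slc25a39, which serves glutathione import, differed by 0.24 ± 0.10 in liver (adjusted p = 0.284), and Slc25a37, the iron carrier mitoferrin 1, by -0.09 ± 0.19 (0.923). Ucp2 differed by -0.19 in liver, -0.15 in duodenum and -0.18 in jejunum, and by less than 0.01 in ileum. Pools of the 2 states overlapped for Ucp2 in all 4 tissues.

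The remaining uncoupling homologues and amino acid carriers stayed within 0.30 of 0 in liver. Slc25a14 and Slc25a27, uncoupling homologues known from brain, differed there by -0.11 ± 0.18 and -0.09 ± 0.12, and Ucp3 by 0.25 ± 0.12. Slc25a29 measured 5.80, 6.34, 6.47 and 6.44 in lactating livers and 5.77, 5.93, 5.95 and 6.21 in control livers, a difference of 0.30 that missed the threshold. In both states pool 1 was the lowest, and 3 of the lactating pools lay above all control pools. Slc25a44 differed by 0.23 ± 0.14 in liver and -0.16 ± 0.14 in jejunum (adjusted p = 0.56 and 0.758, limma).

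Slc25a35, given no role here, measured 5.25, 5.22, 5.04 and 4.88 in lactating jejunum and 5.32, 5.27, 5.48 and 5.63 in control jejunum. The pools did not overlap, but the gap between the nearest pools was small beside the spread within each state, and the difference of -0.33 missed the threshold. In the other tissues its pools overlapped, with differences of 0.03 in liver, 0.05 in duodenum and -0.09 in ileum.

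Genes that work beside the carriers were tested in 8 lists (other inner membrane transporters, outer membrane channels and import, malate-aspartate shuttle, citrate use, carnitine shuttle, urea cycle, iron and glutathione partners, and cofactor synthesis), of which 65 genes were measured. In liver, 2 of 65 passed in limma, where 1.88% of all clusters did. Cpt1a, the outer membrane enzyme that makes the acylcarnitines moved by Slc25a20, was downregulated by -0.91 ± 0.13 in lactating livers (adjusted p = 4.08e-05), and Gss, glutathione synthetase, was upregulated by 0.69 ± 0.12 (0.000818). In jejunum, where 0.808% of clusters passed, 1 of 65 did, Cpt1c (0.35 ± 0.08, adjusted p = 0.0291). In duodenum, where 0.643% of clusters passed, 0 of 65 did, with 5 at an unadjusted p under 0.05. In ileum, where 1.28% passed, 0 of 65 did, with 2 at an unadjusted p under 0.05. The mixed model called 0 of 65 in duodenum and in ileum. As for the members, the share of all clusters was not counted for it or for unadjusted p-values. The median differences of the 8 lists in liver ran from -0.02 (other inner membrane transporters) to 0.22 (iron and glutathione partners). The 6 urea cycle enzymes were at 0.19 and the 6 measured genes of citrate use at 0.20, beside a median of 0.01 over all clusters. In the same order these lists were at 0.18 and 0.15 in duodenum, 0.07 and -0.02 in jejunum, and 0.16 and 0.20 in ileum. For the lactation effect in liver minus the mean of the segments, their medians were 0.04 and 0.02. With the replicate block 3 of the 6 genes of citrate use passed as higher in liver, where 4.13% of clusters passed. Of the 6 urea cycle enzymes, 0 passed there with the block.

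Levels were then compared between tissues in control rats, each gene with itself, since values of different genes on this array cannot be set against each other. In liver against the mean of the 3 segments, 28 of 35 members were called, 17 higher and 11 lower in liver, where 46.3% of clusters were called (22.7% higher and 23.6% lower). Group means alone were also ranked, whether or not pools overlapped. By this rank members were highest in liver in 18 cases and lowest there in 13. The same counts were 3 and 5 in duodenum, 7 and 9 in jejunum, and 7 and 8 in ileum. In some cases control liver overlapped the next tissue, as for Slc25a41 and Slc25a54. The share of all clusters was not counted for these ranks. All 5 cofactor, nucleotide and metal carriers were higher in liver (0.45 to 2.59), and 3 of 5 carboxylate and acyl carriers were.

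**Figure D3:**
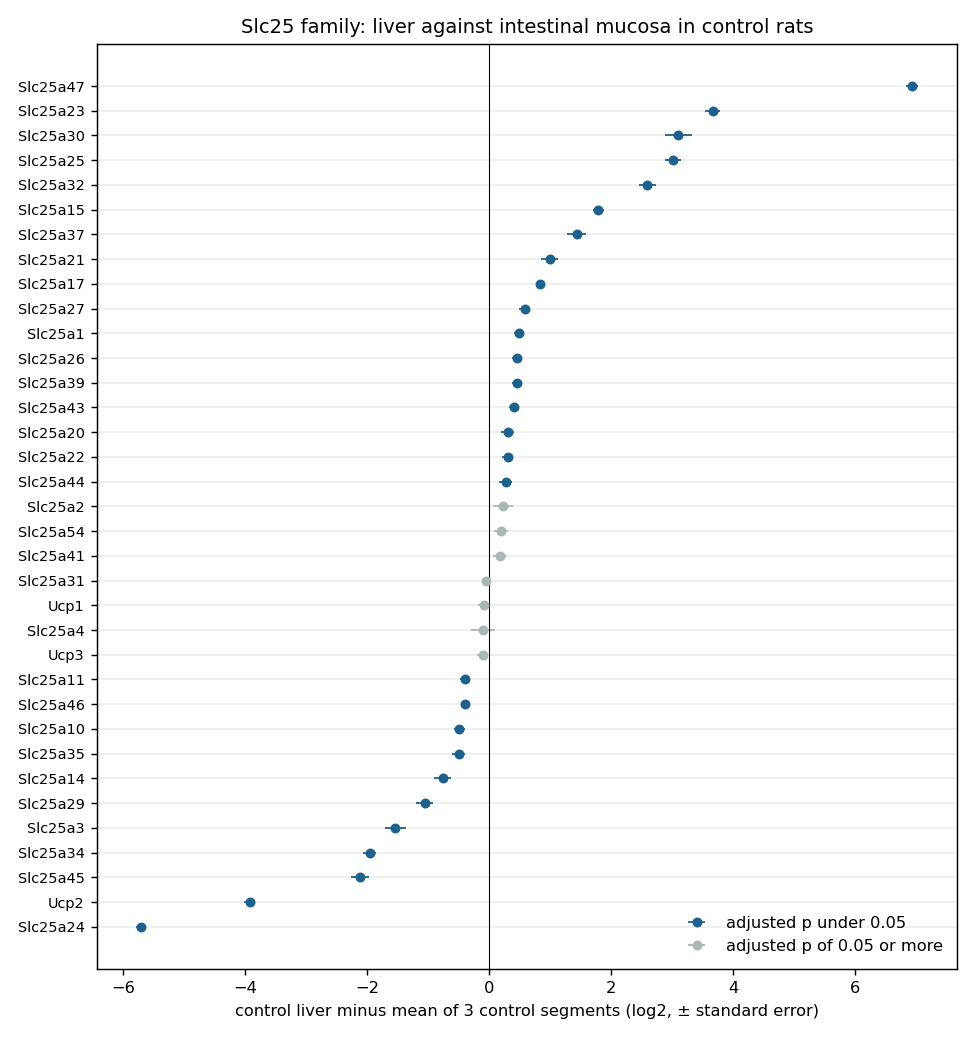
Control liver minus the mean of control duodenum, jejunum and ileum (log2, x axis, ± standard error from limma) of the 35 members (y axis), in order. Slc25a47 (6.93) and Slc25a24 (-5.70) lie at the ends, and 7 members between 0.23 and -0.11 did not pass the threshold.

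Slc25a47, a carrier known from liver, had the largest difference. It measured 12.19, 12.03, 11.99 and 12.08 in control livers, and 4.93 to 5.42 on the 12 control intestinal arrays. The difference was 6.93 ± 0.10, or 122-fold (adjusted p = 1.94e-30, limma). The intestinal values lay just above the array medians (4.68 to 4.87), where signal over background is small, which limits this fold. In lactating rats it measured 12.17, 12.25, 11.76 and 12.17 in liver. The difference from control livers was 0.02, and the pools of the 2 states overlapped.

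The next largest differences toward liver were those of Slc25a23, Slc25a30 and Slc25a25. These values rest on the same control liver arrays as the comparison with lactating livers, so the 2 comparisons are not independent. Slc25a23 was higher in control liver by 3.66 ± 0.12, or 12.7-fold, Slc25a30 by 3.10 ± 0.22, or 8.56-fold, and Slc25a25 by 3.01 ± 0.13, or 8.06-fold. Slc25a32, which carries folate and FAD, was higher by 2.59 ± 0.14, and Slc25a15 by 1.79 ± 0.09, or 3.45-fold (adjusted p of 4.27e-16 or less for Slc25a32 and Slc25a15). The levels of Slc25a30 in liver and ileum did not overlap in control rats, where liver was 8.25 to 9.47 and ileum 5.29 to 6.67. In lactating rats they did, with liver at 6.84 to 7.70 and ileum at 5.87 to 6.95.

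At the other end was Slc25a24. It measured 4.24, 4.43, 4.81 and 4.46 in control livers and 9.85 to 10.70 on the control intestinal arrays, a difference of -5.70 ± 0.08, or 52.1-fold lower in liver (adjusted p = 3.09e-30, limma). Its level was higher in ileum than in jejunum and in jejunum than in duodenum, with no overlap of the control pools, although duodenum minus jejunum, at -0.29 ± 0.10, missed the threshold in limma (adjusted p = 0.0524, and 0.0483 with the replicate block). The ATP-Mg/phosphate carriers thus divided, with Slc25a23 and Slc25a25 higher in liver and Slc25a24 higher in the intestine. The liver mean of Slc25a24 lay under the array medians, where signal over background is small, which limits its fold.

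Ucp2, an uncoupling protein homologue expressed in many cells of the gut and immune system, measured 7.70, 7.97, 8.11 and 7.92 in control livers and 11.53 to 12.05 on the control intestinal arrays. The difference was -3.92 ± 0.09, or 15.2-fold lower in liver, and the 3 segments overlapped. Next were Slc25a45 (-2.12 ± 0.15), Slc25a34 (-1.96 ± 0.11), Slc25a3 (-1.54 ± 0.17) and Slc25a29, a carrier of basic amino acids (-1.06 ± 0.14), all at an adjusted p of 2.6e-07 or less. The 7 members that did not pass were Slc25a2, Slc25a54, Slc25a41, Slc25a31, Ucp1, Slc25a4 and Ucp3, of which Slc25a4 alone reached a group mean of 6.

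**Figure D4:**
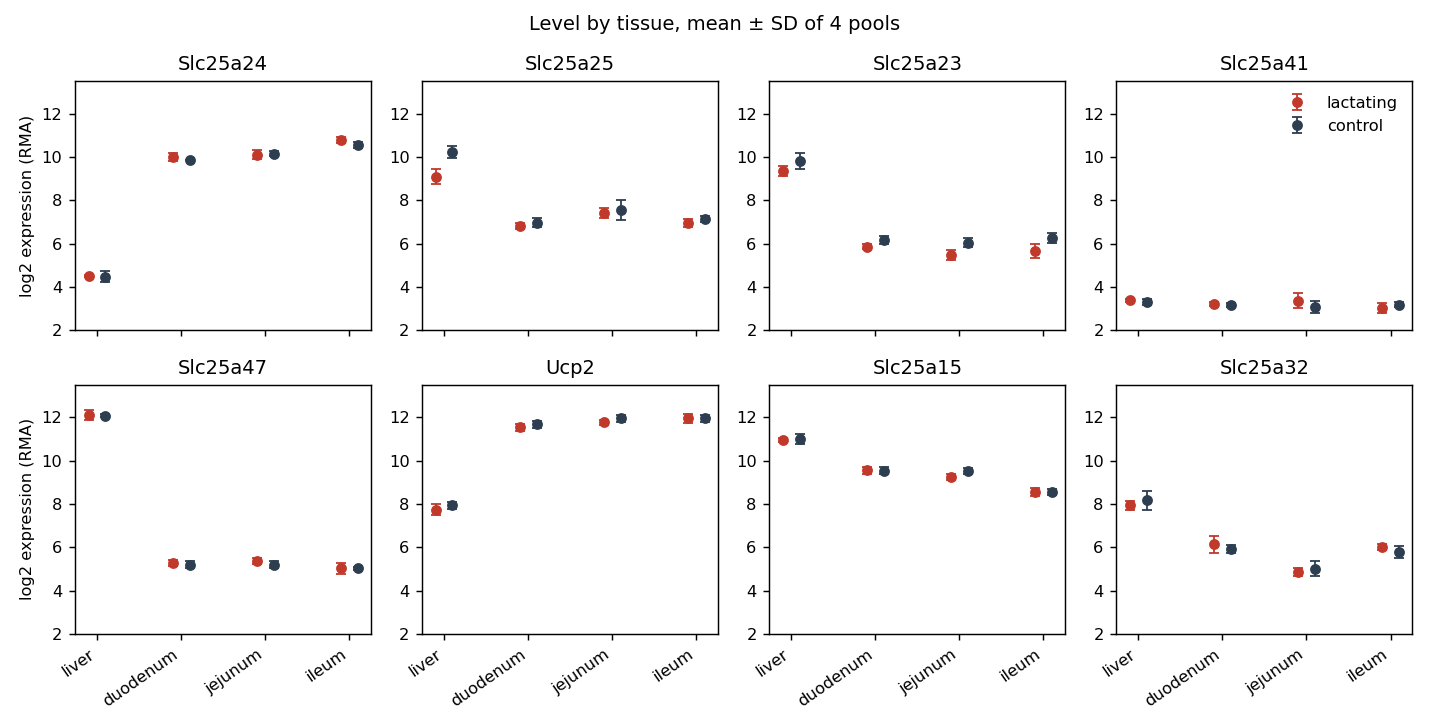
Log2 expression (y axis, mean ± SD of 4 pools) by tissue (x axis) in lactating (red, left) and control rats (blue) for the ATP-Mg/phosphate carriers Slc25a24, Slc25a25, Slc25a23 and Slc25a41 and for Slc25a47, Ucp2, Slc25a15 and Slc25a32. Slc25a24 and Ucp2 are low in liver (4.48 and 7.93 in control rats), Slc25a25, Slc25a23 and Slc25a47 are high there, and levels of different genes cannot be compared.

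Along the intestine of control rats, 9 of 35 members differed between duodenum and jejunum, 3 higher and 6 lower in duodenum, where 13.1% of clusters differed (6.3% higher and 6.77% lower). The largest differences toward duodenum were those of Slc25a32 (0.93 ± 0.17), Slc25a39 (0.36 ± 0.09) and Slc25a26, which carries S-adenosylmethionine (0.34 ± 0.09). The largest toward jejunum were those of Slc25a29 (-1.30 ± 0.18), Slc25a34 (-0.73 ± 0.13) and Slc25a44, a carrier of branched-chain amino acids (-0.63 ± 0.13). Slc25a29 measured 5.84, 6.02, 6.08 and 6.25 in control duodenum and 7.07, 7.60, 7.37 and 7.35 in control jejunum, with no overlap. With the replicate block 12 members differed, 4 higher and 8 lower in duodenum, where 15.5% of clusters differed, and those added were Slc25a24, Slc25a45 (0.49, adjusted p = 0.0256) and Ucp2 (-0.27, 0.0175). In limma, 6 of 6 pancreatic acinar markers (median 7.15) and 4 of 4 smooth muscle markers (0.65) were called higher in control duodenum. By contrast, 2 of 6 adipocyte markers and 1 of 4 T cell markers were called lower there. Of 5 enterocyte markers, 0 were called. The part of these markers in the values of the members was not tested.

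Between jejunum and ileum, 15 of 35 members differed, 7 higher and 8 lower in jejunum, where 26.1% of clusters differed (7.89% higher and 18.2% lower). Slc25a45 had the largest step, with 9.55, 9.84, 9.42 and 9.40 in control jejunum and 7.06, 7.97, 6.98 and 7.13 in control ileum. The difference was 2.27 ± 0.18, or 4.82-fold (adjusted p = 1.04e-10, limma). Slc25a15 (0.98 ± 0.11) and Slc25a34 (0.71 ± 0.13) were also higher in jejunum. Slc25a4 (-0.96 ± 0.24), Slc25a35 (-0.86 ± 0.13) and Slc25a32 (-0.79 ± 0.17) were lower in jejunum than in ileum. With the replicate block 15 members differed, where 28% of clusters did. Slc25a31 (adjusted p = 0.0541) and Slc25a43 (0.0604) then missed the threshold, and Slc25a3 (0.44, 0.00385) and Slc25a25 (0.40, 0.0304) passed it. Slc25a32 was thus lowest in jejunum, at 5.0 ± 0.35 (SD, n = 4) in control pools, and Slc25a34 was highest there, at 7.71 ± 0.10. Among markers, 4 of 6 of adipocytes and 1 of 5 of enterocytes were called higher in control jejunum than ileum in limma. Called lower were 3 of 4 smooth muscle markers and 3 of 4 T cell markers. Of 6 acinar markers, 0 were called. The part of these markers in the values of the members was not tested.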

How the data were processed

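The deposited table holds log2 values for 19434 transcript clusters on 32 arrays. The authors made them with RMA, run in Affymetrix Expression Console on genes, with the Extended probe set and the rn4 annotation. Tool versions: not given in the sources used here. Gene symbols came from the platform's annotation, and clusters with several symbols or none were not named. No array or cluster was left out and no pseudocount was used. RMA draws all arrays to 1 distribution, so that a shift common to most genes would not be seen.

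The model, in limma 3.58.1 under R 4.3.3 with statmod 1.5.0, had 8 group means, with arrays of 1 pool correlated (random block, consensus 0.163). Benjamini-Hochberg adjustment ran over 19434 clusters, and an adjusted p under 0.05 was called. Pools are the replicates, and the number of arrays limits the precision.

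Pools carry the numbers 1 to 4 in the labels of each state, which do not say what a number marks. Deviations from group means correlated at 0.307 to 0.818 between pools of the same number and at -0.563 to 0.31 between others, so the ranges just met. On this ground the numbers were taken to pair the pools, and the fit with this replicate block is given where it changes a call. The pairing was inferred from the same values that the block then tests. Calls made with the block alone rest on it. The consensus correlation within a pool was negative with the block, at -0.0436, against 0.163 in the main fit. For the state effect the block called 17.5% of clusters, against 2.51% in the main fit. Other alternatives were no pool block, 1 tissue at a time, a minimum group mean of 6, weights for arrays, quantile normalization within tissue, an intensity trend, the mixed model and thresholds of the methods, and each pool left out.

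Genes were named where called in a lactation contrast, where the study names them, where they had the 6 largest differences each way between liver and segments or the 3 largest each way between segments, and by the 3 smallest p-values per tissue. Slc25a2, Slc25a45 and others outside these in a tissue were added after their values were seen. The members and lists were chosen with earlier results of these data known. Promoter matches and tables used Python 3.11.15, numpy 2.4.6 and pandas 2.3.3, and plots matplotlib 3.10.9.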

Additional observations from a re-analysis of the deposited data

Results flagged for a closer look

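The interaction of state and tissue passed for Slc25a25 (adjusted p = 0.0112 in limma) and for Slc25a30 (0.00466), both with the lower level in lactating livers described above.

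For the 17 genes named by rule, 136 groups of 4 pools were looked at for a pool far from the other 3, and 15 such pools were found. The limit was Dixon's critical value, set so that chance passes it in about 1 in 20 independent groups, and these groups share pools and are not independent. Pool 4 was the distant one in 7 of them. Slc25a3 had its low pool 4 in lactating liver (9.95, others 11.05 to 11.18), lactating jejunum (11.94, others 12.53 to 12.64), control duodenum (11.78, others 12.30 to 12.33) and control ileum (11.52, others 12.16 to 12.27). Slc25a24 was high in lactating duodenum (10.24, others 9.89 to 9.93), Slc25a43 was high in control jejunum (4.31, others 4.03 to 4.05), and Slc25a34 was low in control liver (4.85, others 5.40 to 5.44).

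Pool 1 was low in 5 cases. These were Slc25a2 (2.71, others 3.86 to 3.95) and Slc25a30 (4.75, others 5.81 to 6.02) in lactating duodenum, Slc25a23 in control liver (9.22, others 9.95 to 10.07), and Slc25a29 (6.91, others 7.86 to 8.05) and Ucp2 (11.70, others 12.01 to 12.03) in control ileum. Slc25a45 was high in ileum in pool 2 of both states, at 7.72 in the lactating pool (others 6.59 to 6.76) and 7.97 in the control pool (others 6.98 to 7.13). Slc25a47 was low in lactating liver pool 3 (11.76, others 12.17 to 12.25).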

How the results depend on the processing

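Of 79 results for named members under the alternatives (1319 values), 1204 kept their direction and side of the threshold, 87 lost the call, 28 gained it and 0 changed direction. With the replicate block, the members called were 6 in liver, 1 in jejunum, 1 in ileum and 8 for the state effect. With the arrays of 1 tissue fitted alone, 0 were called in liver. Jejunum and ileum had 1 member each (Slc25a23) with clusters of a group mean of 6 or more, with array weights and with the thresholds of the methods. The state effect had 4 members with no pool block, 1 with clusters of a group mean of 6 or more and 0 with the mixed model. For this effect the mixed model also called 0 of the 65 list genes and 0 of 33 cell type markers. The interaction had 1 with no pool block and 0 without both pools of number 4, a setting chosen after seeing the data. Duodenum against jejunum had 14 with clusters of a group mean of 6 or more. With 1 pool left out, the members called ranged from 2 to 3 in liver, 0 to 0 in duodenum, 0 to 1 in jejunum, 0 to 1 in ileum, 1 to 2 for the state effect, 0 to 2 for the interaction, 2 to 3 for liver against the segments in lactation, and in control rats 27 to 28 for liver against the segments, 5 to 11 for duodenum against jejunum and 11 to 14 for jejunum against ileum. The causes were not tested. Apart from the replicate block, the share of all clusters called under these settings was not counted. No gene had more than 1 cluster, so another choice of cluster could not be tried. Members under the array median have little signal over background, which limits what their values show.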
